A study of Mus musculus with 2 samples.

Results

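The matrix metalloproteinases (Mmp), the ADAMTS proteases (Adamts), the ADAMTS-like proteins (Adamtsl) and the tissue inhibitors of metalloproteinases (Timp) were examined together in total RNA of the embryonic mouse heart. Members were all protein-coding genes whose symbol begins with one of these family names and a number and whose identifier was listed in both gene tables, which gave 50 genes of 43346 Ensembl genes (21474 of them protein-coding). They were 22 Mmp, 19 Adamts, 5 Adamtsl and 4 Timp genes. Mmp1a, which the annotation classes as a polymorphic pseudogene, was left out by the rule and had 0 reads in both libraries.

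The study measured hearts of healthy B6NCrl embryos (a C57BL/6N substrain) at embryonic day 13.5, with no treatment and no second group. There were 2 libraries, replicates 2 and 1, each made from 10 ng of RNA longer than 200 nt. Both came from a pool of male and female embryos, and the labels give them as biological replicates that share a donor entry, so the spread between them may not cover all variation between embryos. With 1 group of 2 libraries no test between conditions was possible, and levels are given as mean ± SD (n = 2) in TPM, a transcript abundance corrected for gene length and depth.

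Mmp proteins are zinc enzymes, secreted or held at the cell surface, that cut collagens and other matrix proteins and are made as inactive precursors. Adamts proteins are secreted zinc enzymes with thrombospondin repeats that cut proteoglycans such as versican and aggrecan, trim procollagens or act on fibrillin microfibrils, while Adamtsl proteins share the repeats but lack the protease domain. Timp proteins bind the active site of these enzymes. In the embryonic heart the matrix between endocardium and myocardium, the cardiac jelly and the valve cushions are remodelled, and versican cleavage by Adamts proteases is known from mouse mutants to take part in trabeculation and in valve sculpting.

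Estimated reads summed to 36060765 in replicate 2 and 36733400 in replicate 1, so that a level of 1 TPM on a 1 kb transcript amounted to 27.4 reads (replicate 2) or 29.3 (replicate 1). Added spike-in RNA took 2.56% of reads in replicate 2 and 5.96% in replicate 1. Since TPM is a share of all listed RNA, the median gene had a TPM ratio of replicate 2 to replicate 1 of 0.15 on the log2 scale, against -0.00 for scaled counts. All 5 cardiomyocyte markers were detected, such as Tnnt2 (cardiac troponin T) with 5086 TPM in replicate 2 and 4312 in replicate 1. So were all 6 endothelial and endocardial markers. All 4 lung and foregut markers were detected as well, and their sum was 21.4 TPM (replicate 2) and 21.5 (replicate 1). Among them, Sftpc had 181 reads (replicate 2) and 163 (replicate 1). Whether this RNA came from tissue other than heart was not tested. Hepatocyte markers were higher in replicate 2 for 6 of 6 genes, with a summed level of 371.2 TPM in replicate 2 and 57.3 TPM in replicate 1, and 3 of 3 neutrophil markers with enough reads were higher there too (33.4 TPM in replicate 2 and 17.2 TPM in replicate 1, summed over 5 genes).

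The catalytic site of both protease families is written in 33 bases, 11 codons in which the histidines at codons 1, 5 and 11 hold the zinc ion. These stretches are shown for the genes that led each family and for genes that differed from them, because they mark which transcripts can encode an enzyme, a distinction used again below. They were read from GENCODE M21 coding sequences (GRCm38), 5′ to 3′ on the coding strand, with the 3 histidine codons in capitals.
Mmp14: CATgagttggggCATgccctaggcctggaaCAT
Mmp2: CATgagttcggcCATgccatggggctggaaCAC
Mmp23: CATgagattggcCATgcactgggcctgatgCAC
Mmp20: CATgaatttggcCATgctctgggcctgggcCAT
Adamts1: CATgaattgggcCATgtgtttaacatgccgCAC
Adamts15: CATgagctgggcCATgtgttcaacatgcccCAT
Adamts8: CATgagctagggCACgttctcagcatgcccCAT
Adamts5: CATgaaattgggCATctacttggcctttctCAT
Adamts10: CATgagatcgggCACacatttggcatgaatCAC

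The stretch was found in the coding sequence of 22 of 22 Mmp and 19 of 19 Adamts genes, and in 0 of 5 Adamtsl and 0 of 4 Timp genes. Codon 8 encoded glycine in all 22 Mmp genes and in 13 Adamts genes, such as Adamts5 and Adamts10 above. It encoded asparagine in 5 Adamts genes (Adamts1, Adamts4, Adamts9, Adamts15 and Adamts20) and serine in 1 (Adamts8), and all 6 belong to the class that cuts aggrecan and versican. Adamts4 and Adamts15 shared 30 of the 33 bases, and Adamts1 shared 28 with both Adamts9 and Adamts15 but 20 with Adamts5, the other member of that class with glycine there. Mmp14 and Mmp2 shared 27 bases, and Mmp14 shared 20 with Adamts1.

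The stretch lay within 1 coding exon in all 22 Mmp genes: in exon 5 of Mmp14 (chr14:54437627-54437659, plus strand), exon 8 of Mmp2 (chr8:92839279-92839311, plus strand), exon 5 of Mmp23 (chr4:155651528-155651560, minus strand) and exon 5 of Mmp20 (chr9:7643985-7644017, plus strand). In all 18 Adamts genes whose coordinates were examined an intron divided it, as in Adamts1, where it began in exon 3 (chr16:85799191-85799545, minus strand), and in Adamts10, where it began in exon 9 (chr17:33538157-33538279, plus strand). Counts of other motifs also differed between the families. The cysteine switch of the propeptide, which blocks the zinc until it is removed, was searched in a single exact form (P, R, C, G, any residue, P, D). That form was encoded by 16 of 22 Mmp genes and by no Adamts gene. Variant forms were not searched, so a gene without a match may still encode a switch. A furin-type site (R, any residue, K or R, R), where proprotein convertases can cut, was searched anywhere in the coding sequence. It was encoded by 11 of 22 Mmp, 18 of 19 Adamts, 2 of 5 Adamtsl and 0 of 4 Timp genes.

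At 1 TPM or more in both libraries, 27 of the 50 members were detected (54%), against 57.3% of all protein-coding genes. Whether members or all genes had the higher share depended on the setting: at 0.5 TPM it was 66% of members and 61.4% of protein-coding genes, and with at least 10 reads in both libraries 78% of members and 66.7% of protein-coding genes. Detection differed by family: 3 of 4 Timp, 4 of 5 Adamtsl, 13 of 19 Adamts and 7 of 22 Mmp genes. These counts depend on the threshold: at least 10 reads in both libraries were found for 12 Mmp genes, and at least 5 TPM for 7 Adamts genes. At 10 TPM or more in both libraries there were 10 members (5 Mmp, 2 Adamts and 3 Timp), or 10 of 50 against 33.9% of protein-coding genes. No read in either library fell on 6 members, all of them Mmp genes, out of 50, against 18.9% of protein-coding genes. The members together held 573.7 TPM in replicate 2 and 544.7 TPM in replicate 1, which is 0.0574% of all TPM in replicate 2 and 0.0545% in replicate 1.

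The Mmp family held 49.6 ± 0.038% of this summed level, the Timp family 23.3 ± 0.40%, the Adamts family 21.6 ± 0.17% and the Adamtsl family 5.51 ± 0.61%. Summed Mmp TPM was 284.2 in replicate 2 and 270.1 in replicate 1 (277.2 ± 10.0). Summed Timp TPM was 132.1 in replicate 2 and 128.4 in replicate 1 (130.2 ± 2.5). Summed Mmp RNA was thus 2.13-fold above summed Timp RNA, a log2 ratio of Timp to Mmp of -1.09 ± 0.02, and 2.29-fold above summed Adamts RNA. These are RNA levels, and neither protein nor enzyme activity was measured.

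**Figure D1:**
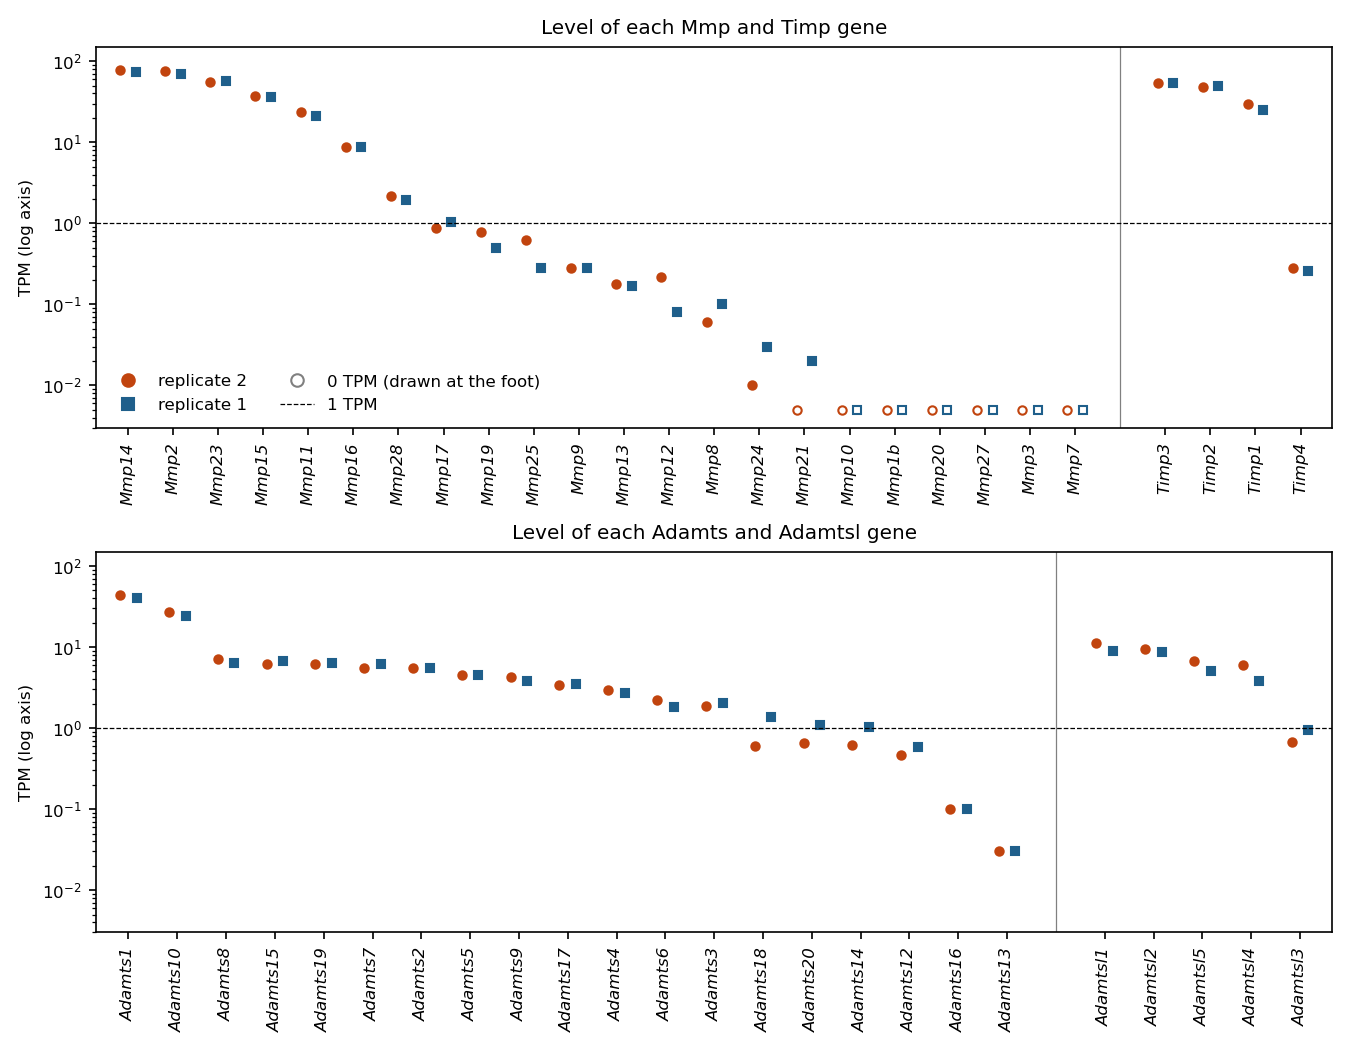
TPM (log axis) of each of the 50 members, sorted within a family by mean level, with replicate 2 as circles on the left of each gene and replicate 1 as squares on the right; open symbols mark 0 TPM and are drawn at the foot, and the dashed line marks 1 TPM. Mmp levels run from 78.9 TPM (Mmp14, replicate 2) down to 6 genes at 0 in both libraries, whereas 3 of 4 Timp genes lie above 25 TPM in both.

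Among the inhibitors, Timp3, a matrix-bound inhibitor that also acts on Adamts proteases, had 53.7 TPM in replicate 2 and 53.9 TPM in replicate 1. Timp2, which together with Mmp14 takes part in the activation of the Mmp2 precursor, had 48.6 TPM in replicate 2 and 49.1 TPM in replicate 1. Timp1 had 29.4 TPM in replicate 2 and 25.2 TPM in replicate 1. The order Timp3, Timp2, Timp1 held in both libraries with deposited credibility intervals that did not overlap, although Timp3 exceeded Timp2 by only 1.1-fold. Timp4, an inhibitor known from the adult heart, had 0.28 TPM in replicate 2 and 0.26 TPM in replicate 1, or 10 reads in each library, and lay 199-fold below Timp3. Timp3 and Timp2 together made up 78.8 ± 1.9% of summed Timp TPM.

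The 4 Timp coding sequences encoded 205 to 224 residues (205 for Timp1, 220 for Timp2, 211 for Timp3 and 224 for Timp4). Identity between the translated sequences ran from 34.4% (Timp1 and Timp3) to 48% (Timp2 and Timp4). The closest pair in sequence thus joined an abundant gene with a barely detected one. Timp1, Timp3 and Timp4 lie within the synapsin genes Syn1, Syn3 and Syn2 on the opposite strand, which were listed at 1.14 TPM or less in every case.

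Among membrane-type Mmp genes, Mmp14 (ENSMUSG00000000957, chr14:54431612-54445364), which cuts collagen at the cell surface and activates the Mmp2 precursor, had 78.9 TPM in replicate 2 and 73.1 TPM in replicate 1. Mmp15 had 37.01 TPM in replicate 2 and 36.42 TPM in replicate 1, and Mmp16 had 8.73 TPM in replicate 2 and 8.72 TPM in replicate 1. The remaining membrane-type genes were at or near 1 TPM or below. Mmp17 had 0.88 TPM in replicate 2 and 1.04 TPM in replicate 1, Mmp25 had 0.62 TPM in replicate 2 and 0.28 TPM in replicate 1, and Mmp24 had 0.01 TPM in replicate 2 and 0.03 TPM in replicate 1. Mmp17 and Mmp25 encode the GPI-anchored membrane-type enzymes. The 3 detected genes all encode enzymes with a transmembrane segment, as does Mmp24, the lowest of the class. Whether detection goes with the type of anchor was not tested, and the class is too small to decide it, with Mmp17 at the threshold. The class summed to 126.1 TPM in replicate 2 and 119.6 TPM in replicate 1, the largest sum of any protease class.

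The gelatinases, which cut denatured collagen and basement-membrane collagen, were far apart in level. Mmp2 (ENSMUSG00000031740, chr8:92827291-92853420) had 75.8 TPM in replicate 2 and 69.3 TPM in replicate 1, while Mmp9 had 0.28 TPM in both. That ratio was 259-fold (log2 8.02 ± 0.09), with 22 reads on Mmp9 in replicate 2 and 17 in replicate 1. With the deposited posterior mean TPM, which puts Mmp9 at 0.56 TPM, it was 127-fold (log2 6.99 ± 0.09), an alternative chosen after seeing the data. Mmp14 lay slightly above Mmp2 in both libraries, with a log2 ratio of 0.07 ± 0.01. Their means were 76.0 ± 4.1 and 72.6 ± 4.6 TPM. Their credibility intervals were apart in replicate 1 but overlapped in replicate 2, so the order did not meet the rule used here. Mmp14 exceeded Timp2 by 1.55-fold, so the 3 genes of the known Mmp2 activation complex lay between 48.6 and 78.9 TPM in both libraries.

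Mmp23, a short membrane-anchored enzyme without the hemopexin domain, had 55.0 TPM in replicate 2 and 56.7 TPM in replicate 1. Mmp11 (stromelysin-3), which is activated inside the cell by furin, had 23.6 TPM in replicate 2 and 21.4 TPM in replicate 1. Mmp28, the lowest detected Mmp gene, had 2.17 TPM in replicate 2 and 1.94 TPM in replicate 1. From Mmp2 downward through Mmp23, Mmp15, Mmp11, Mmp16, Mmp28 and Mmp17 each gene lay above the next in both libraries with intervals apart. Mmp14, Mmp2, Mmp23, Mmp15 and Mmp11 held 95.1 ± 0.018% of summed Mmp TPM. Mmp11 overlaps Chchd10 on the opposite strand (333 TPM in replicate 2 and 293 TPM in replicate 1), and no source used here says whether counting used strand, so its level is uncertain; how many reads of the overlap were assigned to it was not tested.

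Of the 15 Mmp genes not detected, 9 lie in a single cluster. On chromosome 9, 9 Mmp genes lie within 1 Mb of another, from Mmp13 (chr9:7272514-7283331) to Mmp7 (chr9:7692090-7699585), and include the collagenases Mmp13, Mmp8 and Mmp1b, the stromelysins Mmp3 and Mmp10, the macrophage elastase Mmp12, the matrilysin Mmp7, the enamelysin Mmp20 and Mmp27. Of these, 0 of 9 were detected, 6 had no read in either library, and all 9 together had 24 reads in replicate 2 and 23 reads in replicate 1. Their summed level was 0.46 TPM in replicate 2 and 0.35 TPM in replicate 1, against 283.8 TPM in replicate 2 and 269.8 TPM in replicate 1 for the 13 Mmp genes elsewhere, of which 7 were detected. Within the cluster Mmp13 had 13 reads in each library, Mmp12 had 7 reads in replicate 2 and 3 in replicate 1, and Mmp8 had 4 reads in replicate 2 and 7 in replicate 1. For the 6 genes without reads, 3 reads would have stood for 0.034 to 0.113 TPM in replicate 2 and 0.032 to 0.106 TPM in replicate 1 (lowest for Mmp20, highest for Mmp7), which is the upper limit that a count of 0 allows, for counting error only. The codons of the catalytic site were as complete in these genes as in the others, as the Mmp20 line above shows. Outside the cluster 5 more Mmp genes were below 1 TPM in both libraries, among them Mmp9, Mmp24 and Mmp25, whose values are given above. The others were Mmp19 and Mmp21, at 0.77 TPM in replicate 2 and 0.50 in replicate 1 for Mmp19 and at 0 TPM in replicate 2 and 0.02 in replicate 1 for Mmp21.

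**Figure D2:**
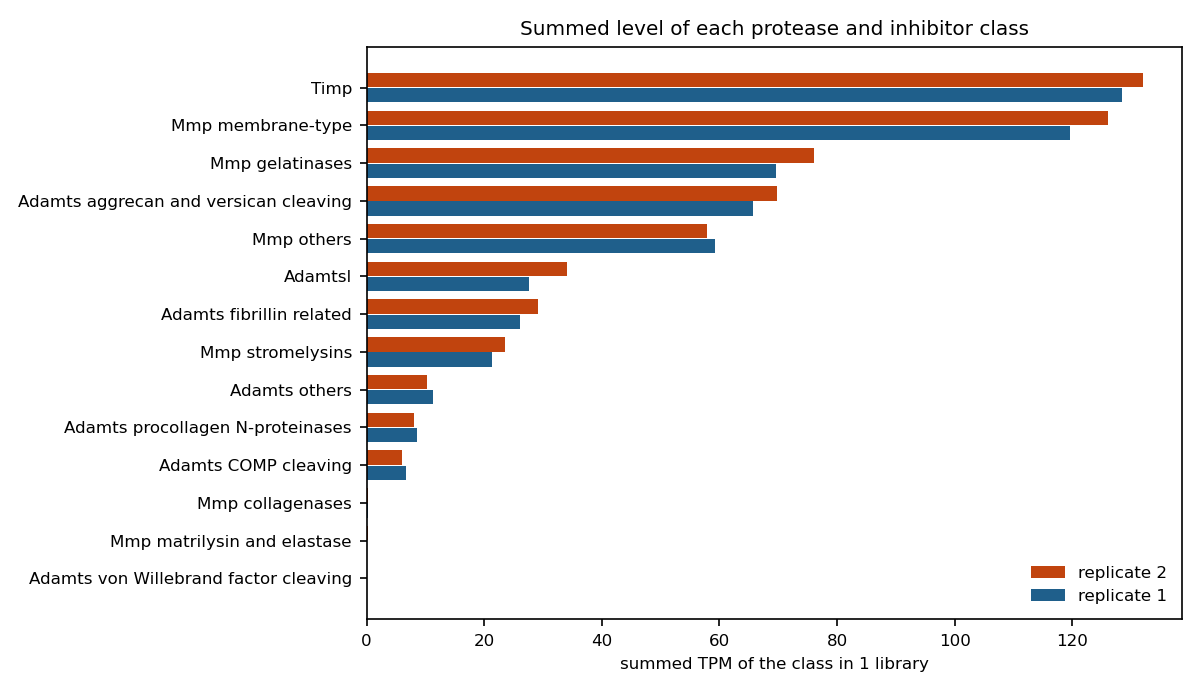
Summed TPM of each class of proteases and inhibitors, with the bar of replicate 2 above that of replicate 1. The inhibitors and the membrane-type Mmp genes have the longest bars, between 119.6 and 132.1 TPM, and the collagenases, the matrilysin and elastase pair and the von Willebrand factor cleaving gene have sums of 0.27 TPM or less.

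Of the Adamts genes that cut aggrecan and versican, Adamts1 (ENSMUSG00000022893, chr16:85793827-85803113) led with 43.9 TPM in replicate 2 and 40.4 TPM in replicate 1. Adamts8 followed with 7.14 TPM in replicate 2 and 6.31 TPM in replicate 1, and Adamts15 with 6.26 TPM in replicate 2 and 6.78 TPM in replicate 1. Adamts1 alone held 34.9 ± 1.1% of summed Adamts TPM. Adamts5, needed in mice for versican turnover in the valves, had 4.59 TPM in replicate 2 and 4.50 TPM in replicate 1. Adamts9, another versican-cleaving enzyme, had 4.30 TPM in replicate 2 and 3.85 TPM in replicate 1. Adamts4 had 2.93 TPM in replicate 2 and 2.74 TPM in replicate 1. Adamts1 thus lay 9.27-fold above Adamts5 and 10.4-fold above Adamts9, and Adamts5 and Adamts9 could not be put in order by their intervals. Adamts20 was lowest in the class, with 0.66 TPM in replicate 2 and 1.08 TPM in replicate 1.

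Several of these genes are neighbours on the chromosome with unequal levels. Adamts1 and Adamts5 (chr16:85856173-85901828) lie side by side on the minus strand and differed 9.27-fold, whereas Adamts8 (chr9:30942562-30963838) and Adamts15 (chr9:30899155-30922452), which lie beside each other on opposite strands, could not be put in order. In all, 22 of the 50 members overlap an annotated gene on the opposite strand, so their levels carry the same uncertainty as that of Mmp11. Mmp19, for example, overlaps Tmem198b, at 15.5 TPM in replicate 2 and 14.6 in replicate 1.

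Of the fibrillin-related pair, Adamts10, whose human gene is mutated in Weill-Marchesani syndrome, had 27.0 TPM in replicate 2 and 24.3 TPM in replicate 1. Adamts6 had 2.22 TPM in replicate 2 and 1.84 TPM in replicate 1, 12.7-fold lower. Adamts10 was the second Adamts gene by level, above Adamts8 with intervals apart, and with Adamts1 it held 56.1 ± 2.0% of summed Adamts TPM. That level rested largely on transcripts that do not encode the catalytic site, as given below.

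The procollagen N-proteinase Adamts2, which trims the amino end of fibrillar procollagens, had 5.47 TPM in both libraries. Adamts3, which also takes part in the processing of the lymphatic growth factor VEGF-C, had 1.90 TPM in replicate 2 and 2.02 TPM in replicate 1, 2.79-fold below Adamts2. Adamts14, the third of this class, had 0.62 TPM in replicate 2 and 1.03 TPM in replicate 1. Adamts7, which cuts cartilage oligomeric matrix protein (COMP), had 5.57 TPM in replicate 2 and 6.14 TPM in replicate 1, while Adamts12, of the same class, had 0.47 TPM in replicate 2 and 0.58 TPM in replicate 1. In each of these classes a single gene carried most of the summed level.

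Adamts19, whose loss causes heart valve disease in humans and mice, had 6.20 TPM in replicate 2 and 6.43 TPM in replicate 1. Adamts17 had 3.36 TPM in replicate 2 and 3.47 TPM in replicate 1. Adamts16, at 0.10 TPM in both, and Adamts13, the von Willebrand factor cleaving protease, at 0.03 TPM in both, were the lowest of the family, with 14 and 3 reads in each library. Adamts8, Adamts15, Adamts19, Adamts7 and Adamts2 followed one another without a gap between neighbouring intervals, between 5.47 and 7.14 TPM. Across the family 6 of 18 neighbouring pairs in the order were apart, so the order below Adamts10 is mostly not resolved.

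Among the ADAMTS-like genes, Adamtsl1 (punctin) had 11.2 TPM in replicate 2 and 9.05 TPM in replicate 1. Adamtsl2, which binds fibrillin and the latent TGF-beta binding protein Ltbp1, had 9.47 TPM in replicate 2 and 8.80 TPM in replicate 1. Adamtsl5 had 6.67 TPM in replicate 2 and 5.0 TPM in replicate 1. Only Adamtsl4 and Adamtsl3 were apart as neighbours in this order. Adamtsl4, linked in humans to displaced lenses, had 6.05 TPM in replicate 2 and 3.83 TPM in replicate 1, and Adamtsl3 (punctin-2) had 0.68 TPM in replicate 2 and 0.96 TPM in replicate 1. In summed TPM the Adamtsl family had the widest relative spread between libraries, with 34.0 TPM in replicate 2 and 27.6 TPM in replicate 1 (30.8 ± 4.5). Its estimated reads were nearly equal, at 2026 in replicate 2 and 2031 in replicate 1. In scaled counts its median absolute log2 ratio was 0.056, the smallest of any family here. Adamtsl2 (chr2:27079379-27108981) lies near Adamts13 (chr2:26973416-27009628), and the levels of these genes averaged 9.13 ± 0.47 TPM and 0.03 TPM. Whether other genes lie between them was not examined.

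The transcripts behind these sums were examined in the 27 detected members. A transcript table lists each gene's isoforms with their percentage of the gene's TPM, and 7 of the 27 members had 1 listed transcript. Of the 20 with more, 11 had 1 transcript above 50% in both libraries, against 71.5% of all detected protein-coding genes with more than 1 transcript. The leading transcript was the same in both libraries in 24 of 27 members and was protein coding in 25. The exceptions were Adamts9, led by a processed transcript without a reading frame (34.1% in replicate 2 and 39.5% in replicate 1), and Adamtsl5, whose largest mean share belonged to a retained-intron transcript (26.9% in replicate 2 and 38.6% in replicate 1).

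For the enzymes, the share of TPM on transcripts whose annotated reading frame holds the zinc-binding codons is the share that could encode a catalytic site. Of 20 detected Mmp and Adamts genes, 18 had more than 50% of their TPM on such transcripts in both libraries and 11 had more than 80%. Such transcripts that are marked for nonsense-mediated decay were counted; without them 17 of 20 were above 50%, since Mmp16 then stood at 45.6% in replicate 2 and 40.4% in replicate 1. Mmp14, Mmp2, Mmp15, Adamts5, Adamts6, Adamts15 and Adamts19 have 1 listed transcript each, and every listed transcript of Adamts3 and Adamts4 holds the codons. These genes stood at 100% through the annotation, whatever their reads, and are part of the counts above. Adamts1 was at 97.2% in replicate 2 and 100% in replicate 1. Mmp11 was at 78.5% in replicate 2 and 82.1% in replicate 1, Mmp23 at 56.6% in replicate 2 and 58.6% in replicate 1, and Mmp16 at 59.1% in replicate 2 and 54.0% in replicate 1. For Mmp23 the rest was retained-intron transcript, at 43.4% in replicate 2 and 41.4% in replicate 1.

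Adamts10 and Adamts9 were the 2 genes with less than 50%. In Adamts10, 19.8% of TPM in replicate 2 and 27.9% in replicate 1 lay on transcripts with the catalytic codons, or 5.33 TPM in replicate 2 and 6.78 TPM in replicate 1. Retained-intron transcripts held 48.8% in replicate 2 and 43.6% in replicate 1, and transcripts marked for nonsense-mediated decay without these codons held 31.0% in replicate 2 and 28.6% in replicate 1. Counted this way, Adamts10 was at the level of Adamts8, Adamts15 and Adamts19 rather than above them. In Adamts9, 15.0% in replicate 2 and 14.8% in replicate 1 lay on such transcripts, or 0.65 TPM in replicate 2 and 0.57 TPM in replicate 1.

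Summed over each family, transcripts with the catalytic codons held 251.6 TPM in replicate 2 and 238.3 TPM in replicate 1 for Mmp genes, 88.5% of the family sum in replicate 2 and 88.2% in replicate 1. For Adamts genes they held 90.9 TPM in replicate 2 and 91.6 TPM in replicate 1, 73.7% of the family sum in replicate 2 and 77.3% in replicate 1. Division of reads among overlapping isoforms is an estimate, and how far these shares reflect spliced messages was not tested.

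**Figure D3:**
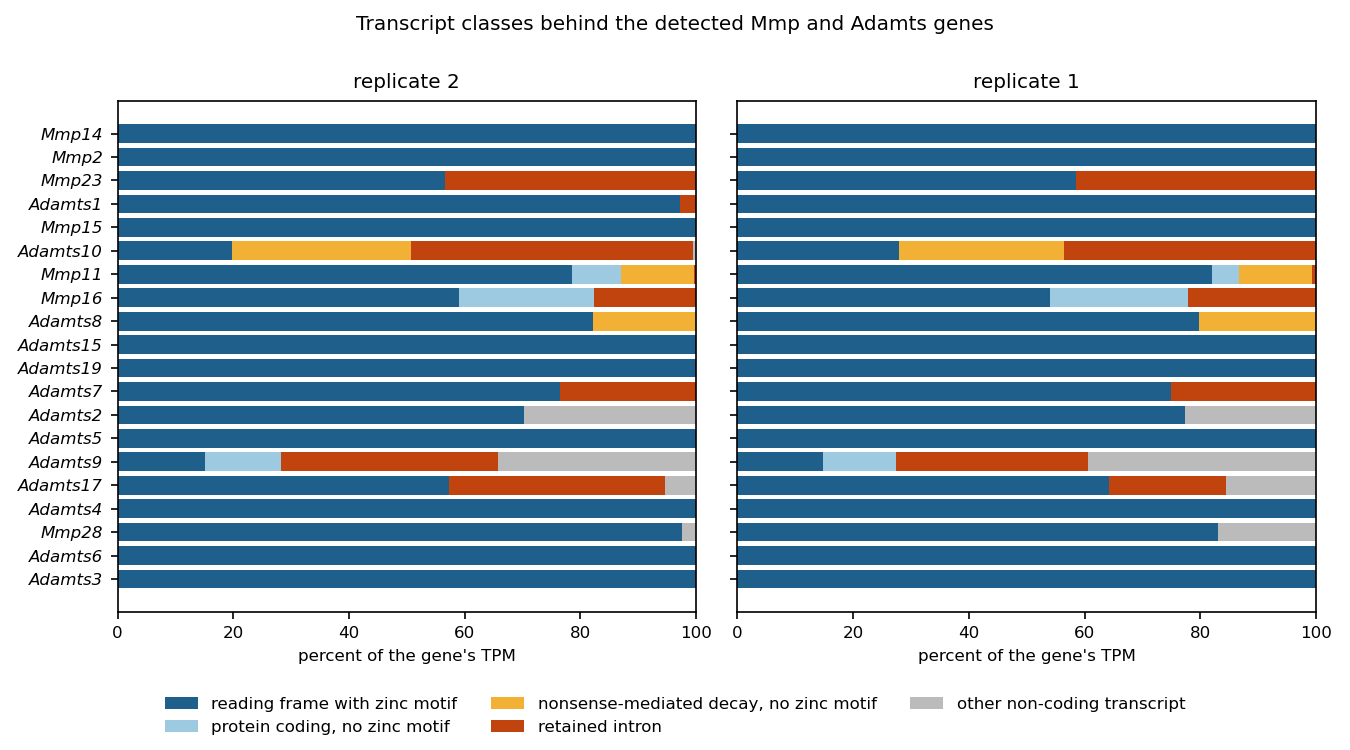
Percent of each gene's TPM held by classes of annotated transcripts in the 20 detected Mmp and Adamts genes, ordered by mean level, with replicate 2 in the left panel and replicate 1 in the right. Dark blue marks transcripts whose reading frame holds the zinc-binding codons. It fills less than 50% of the bar in both libraries for Adamts10 and Adamts9, and more than 50% for the other 18 genes. Where every listed transcript holds these codons, it fills the whole bar through the annotation.

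Isoform shares also bore on the inhibitors and the ADAMTS-like genes. Timp2 and Timp3 were led by 1 transcript in both libraries, at 94.8% in replicate 2 and 97.1% in replicate 1 for Timp2 and at 96.2% in replicate 2 and 97.4% in replicate 1 for Timp3. Timp1 was divided between one transcript (42.3% in replicate 2 and 58.8% in replicate 1) and another (57.7% in replicate 2 and 41.2% in replicate 1), which both encode 205 residues, so that the leading transcript differed between libraries without a change of reading-frame length. In Adamtsl4 a transcript of 288 nt held 32.2% in replicate 2 and 2.63% in replicate 1. The Adamtsl4 read counts of 392 in replicate 2 and 377 in replicate 1 were close although TPM was 6.05 in replicate 2 and 3.83 in replicate 1; TPM divides reads by the length of the transcripts to which they are assigned.

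To set the libraries against each other independently of this length estimate, estimated counts were scaled for depth and composition (TMM), and the log2 ratio of replicate 2 to replicate 1 was taken for the 34 members that averaged 50 or more reads. The median ratio was -0.10, with a range from -1.32 to 0.49. Of the 34 members, 25 were lower and 9 higher in replicate 2, where 50.8% of all genes with enough reads were lower. With the deposited TPM in place of scaled counts 14 of 34 were lower in replicate 2, and with scaling to the spike-ins 1 of 34 was lower, so the direction depends on the scaling. Relative to the median of all genes, which these scalings move to 0.15 and 1.29, the member median was lower by 0.10 to 0.12 in each case. The median absolute ratio was 0.15 over the members and 0.097 over all genes.

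No member was at least 2-fold higher in replicate 2, against 0.741% of genes with enough reads. At least 2-fold lower in replicate 2 was 1 of 34 members, against 0.269% of genes. This was Adamts18 (ENSMUSG00000053399, chr8:113697126-113848738, minus strand), with 91 reads or 0.60 TPM in replicate 2 and 221 reads or 1.36 TPM in replicate 1, a log2 ratio of -1.32. With scaling to the spike-ins the ratio of Adamts18 was -0.036 and no member was 2-fold lower. Of 17 Adamts genes with enough reads 14 were lower in replicate 2 (family median -0.23), against 50.8% of all genes. This count also depends on the scaling. With deposited TPM, Adamts1, Adamts4, Adamts5, Adamts6, Adamts8, Adamts9 and Adamts10 were higher in replicate 2, Adamts2 was equal, and the rest of the 17 were lower. The members next to Adamts18 were Adamts14, with 87 reads in replicate 2 and 153 reads in replicate 1 (log2 -0.86), and Adamtsl3, with 88 reads in replicate 2 and 132 reads in replicate 1 (log2 -0.63). These 3 members all had mean counts below 200. In bulk tissue, fewer cells of a type and less RNA per cell cannot be told apart, so these differences do not say which cells differed.

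Abundant members differed little: among those at 10 TPM or more in both libraries the log2 ratio ran from -0.21 (Mmp23) to 0.07 (Timp1). Mmp14 was at -0.03, Mmp2 at -0.01, Adamts1 at -0.07, Timp3 at -0.16 and Timp2 at -0.19. Mmp19 had the highest ratio, at 0.49, with 70.3 estimated reads in replicate 2 and 48.1 in replicate 1. Mmp25 had 56 reads in replicate 2 and 27 in replicate 1 and did not reach the count minimum. Markers of other cell types moved with the libraries in the same scaled counts. The 5 epicardial markers were all lower in replicate 2 (median log2 -0.36, summed 156.4 TPM in replicate 2 and 175.5 TPM in replicate 1), as were the 6 collagen genes (median -0.27), while the cardiomyocyte median was -0.00. All 5 macrophage markers were lower as well (median -0.21), and all 4 smooth muscle markers were higher (median 0.15). Of the smooth muscle list, Acta2 had 1093 TPM in replicate 2 and 956 TPM in replicate 1. Myh11 had 2.54 TPM in replicate 2 and 2.14 TPM in replicate 1, and whether the list marked smooth muscle alone was not tested. The 4 erythroid markers did not move one way, but their sum, nearly all of it the embryonic globin Hbb-y, was 20132 TPM in replicate 2 and 32546 TPM in replicate 1. The part of these cell types, and of the liver, neutrophil, lung and foregut markers given above, in the member levels and ratios was not tested.

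**Figure D4:**
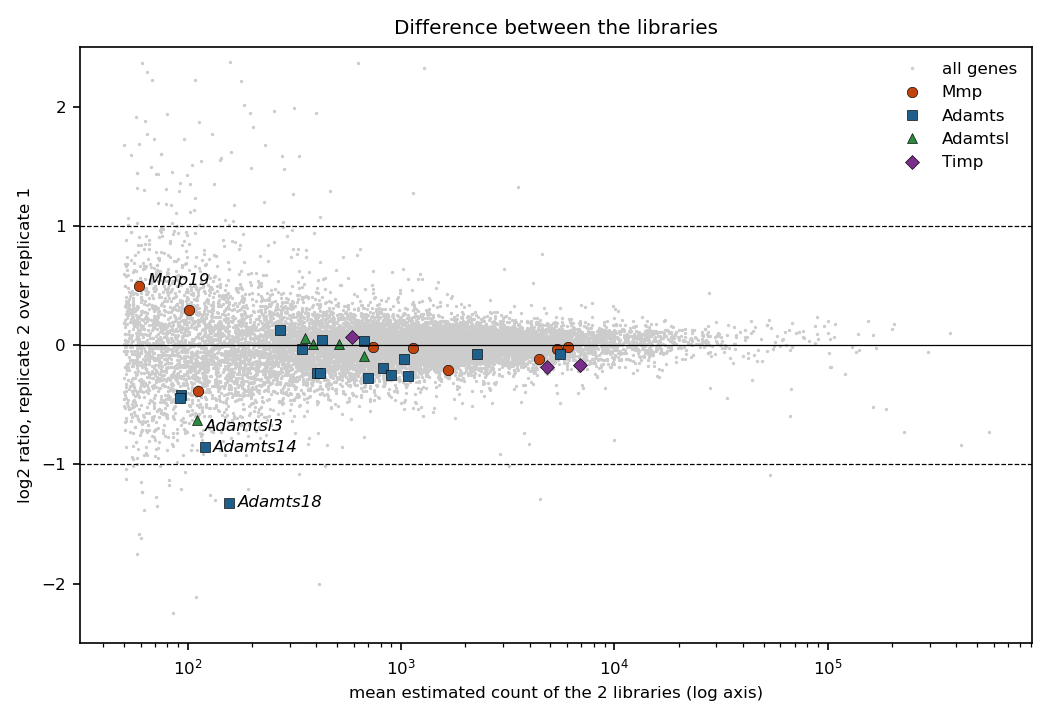
Log2 ratio of scaled counts, replicate 2 over replicate 1, against the mean estimated count (log axis) for members by family, drawn over all 13766 genes that averaged 50 or more reads (grey; 36 of them lie outside the axis); dashed lines mark a 2-fold difference. Members with many reads lie near 0, and Adamts18 at -1.32 is the single member beyond a dashed line.

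Substrates and partners of these enzymes were listed to place the family in its tissue. Versican (Vcan), the main proteoglycan of the cardiac jelly, had 59.1 TPM in replicate 2 and 47.3 TPM in replicate 1, and its link protein Hapln1 had 10.2 TPM in replicate 2 and 11.04 TPM in replicate 1. The cartilage and brain relatives were low: Acan had 0.66 TPM in replicate 2 and 0.77 TPM in replicate 1, Ncan 0.29 in replicate 2 and 0.14 in replicate 1, Bcan 0.02 in replicate 2 and 0.06 in replicate 1, and Hapln3 0.82 in replicate 2 and 1.2 in replicate 1. Of the 4 proteoglycans listed, versican was thus the single one above 1 TPM.

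All 6 collagen genes were detected, led by Col3a1 at 543 TPM in replicate 2 and 611 in replicate 1, Col1a1 at 339.5 TPM in replicate 2 and 462.9 in replicate 1, and Col1a2 at 208 TPM in replicate 2 and 257 in replicate 1. All 7 glycoprotein and elastic fibre genes were detected as well, led by elastin (Eln) at 200.8 TPM in replicate 2 and 175.9 in replicate 1 and fibronectin (Fn1) at 163 TPM in replicate 2 and 193 in replicate 1. The third was Fbln2 at 140.6 TPM in replicate 2 and 139.8 in replicate 1. The 6 genes named here lay above the most abundant protease, Mmp14.

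Enzymes that activate or complement the proteases were moderate in level. Of 4 proprotein convertases, which cut furin-type sites, Furin had 12.2 TPM in replicate 2 and 11.1 TPM in replicate 1, Pcsk7 11.8 in replicate 2 and 11.3 in replicate 1, and Pcsk5 10.3 in replicate 2 and 10.7 in replicate 1. Among procollagen C-proteinases, Bmp1 had 23.5 TPM in replicate 2 and 23.6 TPM in replicate 1, and its enhancer Pcolce had 92.3 TPM in replicate 2 and 84.1 TPM in replicate 1. Tll1 (0.82 TPM in replicate 2 and 0.79 in replicate 1), Pcolce2 (0.51 in replicate 2 and 0.70 in replicate 1) and Tll2 (0.02 in replicate 2 and 0.03 in replicate 1) were below 1 TPM.

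Pofut2, which adds O-fucose to thrombospondin repeats of Adamts and Adamtsl proteins, had 98.7 TPM in replicate 2 and 93.8 TPM in replicate 1, and B3glct, which extends that sugar, had 7.73 TPM in replicate 2 and 7.35 TPM in replicate 1. Vegfc, the growth factor processed with Adamts3, had 11.6 TPM in replicate 2 and 9.83 TPM in replicate 1, while Ccbe1, the cofactor of that step, had 0.24 TPM in replicate 2 and 0.50 TPM in replicate 1. Of 7 membrane ADAM genes 6 were detected, led by Adam10 at 57.6 TPM in replicate 2 and 49.8 in replicate 1, Adam15 at 48.4 TPM in replicate 2 and 45.6 in replicate 1, and Adam9 at 35.6 TPM in replicate 2 and 30.1 in replicate 1. Adam8 was below 1 TPM, at 0.85 TPM in replicate 2 and 0.65 in replicate 1.

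In the plasminogen system, a second protease cascade of the matrix, the inhibitor Serpine2 had 121.6 TPM in replicate 2 and 111.5 TPM in replicate 1. The activator Plat had 44.1 TPM in replicate 2 and 44.8 TPM in replicate 1, and the receptor Plaur had 6.84 TPM in replicate 2 and 6.82 TPM in replicate 1. Plasminogen (Plg), a product of hepatocytes, had 4.20 TPM in replicate 2 and 0.45 TPM in replicate 1, and it moved with the hepatocyte markers given above.

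Of further regulators, the collagen chaperone Serpinh1 had 980 TPM in replicate 2 and 872 TPM in replicate 1, and Bsg (basigin, known as an inducer of Mmp expression) had 993 TPM in replicate 2 and 849 TPM in replicate 1. Reck, a membrane-anchored inhibitor of Mmp enzymes, had 7.98 TPM in replicate 2 and 10.4 TPM in replicate 1. A2m, a plasma protease trap, had 0.99 TPM in replicate 2 and 1.09 TPM in replicate 1. The clearance receptor Lrp1, which takes up several of these enzymes and Timp3, had 24.9 TPM in replicate 2 and 29.1 TPM in replicate 1, while Lrp2 had 0.36 TPM in replicate 2 and 0.45 TPM in replicate 1. Reck was thus below each of the 3 detected Timp genes in both libraries.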

How the data were processed

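Total RNA of 2 heart libraries was analysed from the deposited gene and transcript tables. Per the labels and file descriptions, values were made on mm10 with annotation M4; for the aligner, the quantifier, their versions and the strand, the sources used here give nothing. The authors deposited an expected count per feature (not normalized), TPM scaled over all listed features including spike-ins, signal columns with the lower and upper limits of each TPM's credibility interval (level not stated), and each transcript's percent of its gene's TPM. Expected counts were not within 0.005 of a whole number for 6 members; whether their reads were shared with other features was not tested. For 8 of 50 members, all of them Mmp genes at 0.22 TPM or less, the TPM lay outside its interval in at least 1 library.

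Gene names came from GENCODE M21, which held 42462 of the 43346 identifiers once versions were dropped. Expected counts were rounded and scaled by TMM in edgeR 4.0.16 (R 4.3.3); 0.5 was added before log2 ratios, which required a mean count of at least 50. The 96 spike-ins stayed out of scaling. DESeq2 1.42.0 size factors were an alternative, as were other thresholds, posterior means, spike-in scaling and leaving out either library. A gene was placed above another when its level was higher in both libraries and intervals did not overlap. The libraries differed by more than counting noise (chi-square divided by its degrees of freedom, 25.2 over 13766 genes). They were treated as 2 samples, but this measure cannot tell variation between embryos from variation in library preparation. Ratio counts were tested on simulated data.

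Catalytic codons were searched in coding sequences translated with Biopython 1.88, because no protein table was given; both asparagine and serine were accepted at codon 8, a choice made after the first search with glycine alone left 6 Adamts genes unmatched. No interval or p-value over 2 libraries was computed; floors stand for 3 reads and cover counting error only. The members, lists and tests were chosen with earlier results of these data known. Named genes were all Timp and Adamtsl genes, other members with a mean of at least 5 TPM, a fixed set (Mmp2, Mmp9, Mmp14, Adamts1, Adamts4, Adamts5 and Adamts9), members 2-fold apart and up to 3 leading partners per list with those below 1 TPM; other named members were chosen after their values were seen. Some genes that this rule names are not reported here. Python 3.11.15 (pandas 2.3.3, matplotlib 3.10.9) was used.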

Additional observations from a re-analysis of the deposited data

How the results depend on the processing

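The count of 27 detected members ranged from 19 (5 TPM) to 39 (at least 10 reads in both libraries) and was 27 without replicate 1 and 31 without replicate 2. Members had the lower share at 5 TPM (38%, against 43.8% of protein-coding genes) and the higher share without replicate 2 (62%, against 58.1%). TPM recomputed without spike-ins and globins raised family sums to 344.8 (Mmp), 150.5 (Adamts), 38.2 (Adamtsl) and 162.2 (Timp), and raised all 27 named genes by 22.8% to 27.8%. Leaving out a replicate gave sums of 270.1 to 284.2 (Mmp), 118.4 to 123.4 (Adamts), 27.6 to 34.0 (Adamtsl) and 128.4 to 132.1 (Timp), and a log2 Timp to Mmp ratio of -1.11 to -1.07. The median log2 ratio between libraries was 1.18 with spike-in totals and 0.026 with deposited TPM; DESeq2 size factors, a pseudocount of 5 and other count minimums gave -0.10 to -0.07. With spike-in totals 28 of 34 members were at least 2-fold higher in replicate 2, as were 12806 of all 13766 genes, whose median was 1.29. With a mean count of at least 200, 0 of 26 members were at least 2-fold apart, since Adamts18 had too few reads. Of all 11215 genes at that minimum, 28 were 2-fold higher and 7 lower. The count of members led by 1 transcript was 12 to 20 across settings, and 19 and 20 when a replicate was left out. Among the same 27 named genes, posterior mean TPM doubled only Mmp9, at 0.56 TPM. Outside them it more than doubled some members near 0. Adamts13, for example, went from 0.03 TPM in both libraries to 0.12 in replicate 2 and 0.11 in replicate 1. No paired analysis was possible because there is 1 group. The count of enzyme genes with over 50% of TPM on transcripts with the zinc-binding codons was 18, and 17 without those marked for nonsense-mediated decay, an alternative chosen after seeing the data. Both counts include the genes whose listed transcripts all hold these codons. Depth limits low members most: Mmp9, Timp4 and the chromosome 9 cluster each held 24 reads or fewer per library.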
